A study of Mus musculus with 24 samples.

Results

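The digits of MRL mice were compared between day 14 and day 7 after amputation, with 3 arrays at each day and 6 of the 24 arrays of the series in all. The 6 arrays were taken by their titles, which name the strain, the day and a biological replicate from 1 to 3. MRL animals were wild-type mice of the MRL/MpJ background, known for closing punched holes in the ear, and were 3 to 4 months old. Digits were amputated at day 0, at a level not given in the sources used here, and the second phalanx of the middle digits of the hindlimb was collected at day 7 or day 14. A free-text note on the arrays names the anterior part of that digit instead, and the sources used here do not settle which tissue gave the RNA. The remaining 18 arrays hold MRL digits labelled day 0 and day 3 and digits of wild-type C57BL/6 mice (B6), also 3 to 4 months old, at days 0, 3, 7 and 14. The change from day 7 to day 14 in B6 is set beside that in MRL. Nothing in the labels says that arrays of one group came from separate animals beyond the words biological replicate, and the labels do not give how many animals went into an array.

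In the second week after a digit wound, the epidermis has usually closed and the tissue beneath it is being rebuilt. Hair follicles near the wound can pass from rest or loss back into growth, when the follicle makes a hair shaft from hair keratins and keratin-associated proteins, surrounded by an inner root sheath with keratins of its own. Bone injuries of this kind can pass through a cartilage stage, in which chondrocytes lay down collagen II and aggrecan before the cartilage is replaced by bone. Fibroblasts of the young wound secrete a provisional matrix rich in tenascins, fibrillins and thrombospondins, much of which is lost as the tissue matures.

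Values are log2 intensities, the SE of a log2 difference is the moderated one of limma, and the SD is over 3 arrays. Values of 3 arrays are given in the order of replicates 1, 2 and 3. A gene is said to have risen or fallen where its adjusted p (limma, Benjamini-Hochberg over 15928 probe sets) was under 0.05. From day 7 to day 14 in the MRL digit, 564 of 15928 probe sets passed, 3.54% of those tested. Of these, 279 were higher at day 14 (1.75%) and 285 lower (1.79%), and 121 passed with a change of at least 2-fold (0.760%), 96 upward and 25 downward. At an unadjusted p under 0.05 the count was 2143. The arrays of both days did not overlap in 17.6% of all probe sets, so that a gap between 3 arrays and 3 is common here. An exact permutation test of 3 arrays against 3 cannot give a p below 0.1, and the calls rest on the spread shared across all groups. With 1 probe set per gene, 531 of 14807 genes passed, 261 upward and 270 downward, and the median log2 difference of all genes was 0.0146. Of these 531 genes, 525 showed no overlap between the days. The largest rises and falls named below were picked from genes without overlap, so a gap between their days adds nothing to the call. The counts of list members below that rose or fell in MRL stand against 1.75% and 1.79% of probe sets.

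The 6 arrays had median intensities between 151 and 180. Replicate 3 of day 14 stood apart from its group, with correlations of 0.988 and 0.989 with the other arrays of day 14, which correlated at 0.996 with each other. Without it 468 probe sets passed, 171 higher and 297 lower. Without replicate 3 of day 7 the count was 294, with 195 higher and 99 lower, and without replicate 2 of day 7 it was 361, with 200 higher and 161 lower. In the arrays labelled MRL day 0 and MRL day 3 the wound genes Il1b and Timp1 had the opposite order to B6. Il1b stood at 10.21 ± 0.14 and 5.98 ± 0.80 (mean and SD, n = 3), against 6.01 ± 0.38 and 11.78 ± 0.10 in B6, and Timp1 at 11.26 ± 0.30 and 7.42 ± 0.36, against 7.77 ± 0.34 and 11.91 ± 0.33. These 6 arrays enter only through the shared spread. Without them 462 probe sets passed. The keratins of the epidermis checked the tissue, and Krt5, Krt14, Krt1 and Krt10 lay between 12.48 and 13.51 in the 6 arrays. Ibsp, a matrix protein of bone, lay between 11.68 and 12.23, while Ckm, the creatine kinase of skeletal muscle, lay between 6.38 and 6.58. Signal over background was not analysed here. In these bulk samples fewer cells of a type and less RNA per cell cannot be told apart.

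**Figure D1:**
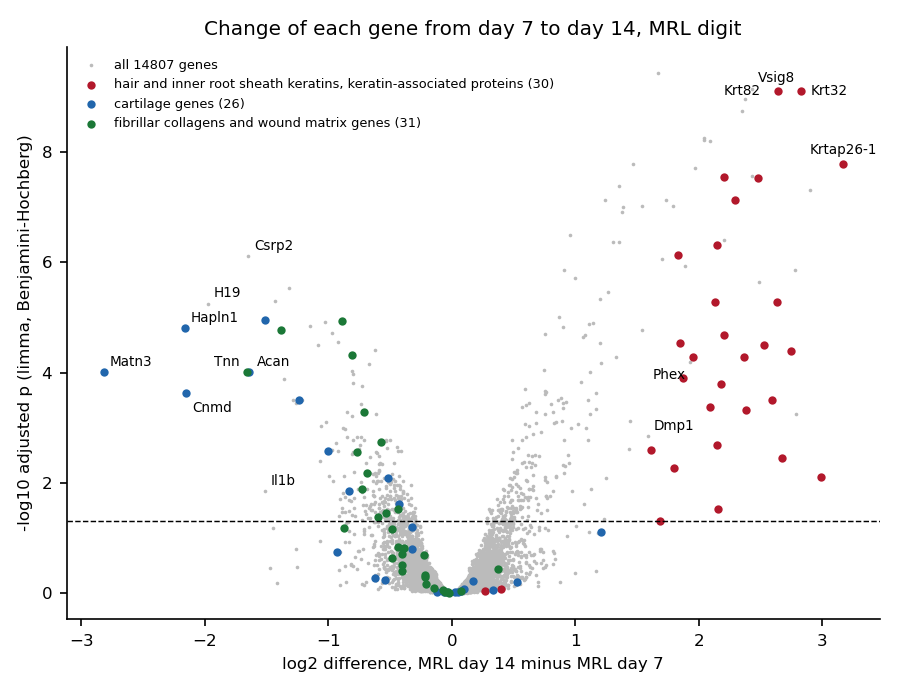
The log2 difference of each of 14807 genes between MRL day 14 and MRL day 7 (x axis) is plotted against -log10 of the limma adjusted p (y axis), with the dashed line at an adjusted p of 0.05. Hair and inner root sheath keratins and keratin-associated proteins (red, 30 genes) lie at the right with Krtap26-1 at 3.17, and cartilage genes (blue, 26) reach furthest left with Matn3 at -2.82.

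The largest rises were in genes of the hair and its sheath. Of 7 hair and nail keratins measured, 6 rose and none fell, with a median log2 difference of 2.29. All 6 keratins of the inner root sheath rose, with a median of 1.92, and 16 of 17 keratin-associated proteins rose, with a median of 2.37. These counts stand against 1.75% of probe sets called higher. With each of the 6 arrays left out in turn, the counts were 6, 6 and 14 to 15. The keratins stand in the series title, and the study could have chosen them from these same arrays, so their lists are not independent evidence of the direction.

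Among the keratins of the hair shaft, Krt32, an acidic hair keratin, stood at 7.18, 7.47 and 7.86 at day 7 and 10.30, 10.06 and 10.63 at day 14. It was low in all 3 arrays of day 7 and high in all 3 of day 14, a 7.09-fold rise (2.83 ± 0.17 in log2, SE, adjusted p = 7.76e-10). Krt82, a basic keratin of the hair cuticle, gave 7.87, 8.06 and 8.15 at day 7 and 10.63, 10.48 and 10.90 at day 14. The rise was 6.26-fold (adjusted p = 7.76e-10). Krt31, a keratin of the hair cortex, was nearly level within each day, at 7.95, 8.01 and 8.06 at day 7 and 10.48, 10.44 and 10.53 at day 14. It rose by 2.48 ± 0.19 (SE), or 5.58-fold. Krt39, a further acidic hair keratin, rose by 2.29 ± 0.19, Krt35, which is made in the hair matrix and cuticle, by 2.21 ± 0.17, and Krt34 of the cortex by 2.13 ± 0.24. Krt84, a basic keratin of nail and tongue epithelium, did not pass. Its values were 9.24, 9.67 and 9.36 at day 7 and 9.87, 9.70 and 9.90 at day 14, a difference of 0.40 ± 0.46 (adjusted p = 0.83).

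The starts of these genes are shown because the hair keratins moved together. Each line gives the 250 bases before the RefSeq transcription start (build GRCm38.p6), 5′ to 3′ on the strand of the gene, with the motifs TATAAA and CTTTGA, on either strand, in capitals. TATAAA is the core of the TATA box, and CTTTGA is a core motif of the LEF and TCF factors that act in the Wnt pathway. Lef1, one of these factors, was among the genes that rose, and whether it acts on these keratin genes was not tested. The windows are chr11:100088270-100088519 (minus strand) for Krt32, chr15:101550660-101550909 (minus strand) for Krt82, chr11:100050552-100050801 (minus strand) for Krt31, and chr11:99351119-99351368 (minus strand) for Krt27 of the inner root sheath.
Krt32: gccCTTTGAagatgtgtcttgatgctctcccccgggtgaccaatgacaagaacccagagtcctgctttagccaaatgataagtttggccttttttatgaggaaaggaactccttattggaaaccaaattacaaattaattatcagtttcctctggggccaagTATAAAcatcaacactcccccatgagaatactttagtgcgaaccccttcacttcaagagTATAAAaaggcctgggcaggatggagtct
Krt82: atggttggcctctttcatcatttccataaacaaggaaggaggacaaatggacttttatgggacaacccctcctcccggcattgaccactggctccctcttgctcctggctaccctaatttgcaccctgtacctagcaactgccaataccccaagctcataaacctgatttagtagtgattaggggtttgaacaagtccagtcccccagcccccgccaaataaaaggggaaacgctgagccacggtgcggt
Krt31: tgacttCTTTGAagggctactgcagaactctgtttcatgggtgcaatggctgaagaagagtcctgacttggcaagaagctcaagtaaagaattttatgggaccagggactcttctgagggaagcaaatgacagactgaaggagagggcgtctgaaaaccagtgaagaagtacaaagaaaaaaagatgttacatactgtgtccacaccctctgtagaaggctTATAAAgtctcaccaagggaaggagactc
Krt27: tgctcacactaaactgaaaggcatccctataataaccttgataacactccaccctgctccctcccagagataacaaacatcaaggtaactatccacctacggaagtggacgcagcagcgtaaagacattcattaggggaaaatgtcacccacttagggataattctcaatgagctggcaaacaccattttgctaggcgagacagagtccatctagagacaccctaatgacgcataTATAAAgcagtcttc
Krt32 and Krt31 each hold TATAAA with its first base 29 bases before the start, and each holds CTTTGA near the far end of the window. Krt27 holds TATAAA 15 bases before the start and no CTTTGA. In Krt82 neither run of letters is in this window. Of 27025 RefSeq promoters, 13.0% hold TATAAA and 14.0% hold CTTTGA in the same window. Of the 6 hair and nail keratins with a promoter in the table, 4 hold TATAAA and 4 hold CTTTGA, and of 5 inner root sheath keratins all 5 hold TATAAA and 0 hold CTTTGA.

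Among the inner root sheath keratins, Krt27 stood at 9.68, 10.24 and 10.17 at day 7 and 12.25, 12.18 and 12.27 at day 14. All 3 arrays of day 14 lay above those of day 7, and it rose 4.61-fold (adjusted p = 2.09e-05). Krt72 rose by 2.15 ± 0.20 and Krt25 by 1.96 ± 0.26. Krt71, a sheath keratin whose mutation gives curly or sparse hair in rodents, stood at 10.77, 11.19 and 11.18 at day 7 and 12.96, 12.90 and 12.90 at day 14 and rose 3.67-fold. Krt75, a keratin of the companion layer of the follicle, rose by 1.80 ± 0.15.

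The keratin-associated proteins crosslink the keratin filaments of the hair shaft. Krtap26-1 had the largest log2 difference of all genes named by the rule, with 7.96, 8.66 and 8.53 at day 7 and 11.66, 11.42 and 11.56 at day 14. Replicate 1 was the lowest at day 7, and the days were far apart. The rise was 8.98-fold (adjusted p = 1.65e-08). Krtap14 rose by 2.75 ± 0.36 and Krtap13-1 by 2.64 ± 0.30. Members of the Krtap19 and Krtap5 families are near-identical copies of one another, so their probe sets may share signal and the single members are uncertain. In these families Krtap19-5 rose by 2.68 ± 0.52, Krtap19-3 by 2.59 ± 0.40, Krtap19-9b by 2.79 ± 0.45 and Krtap5-4 by 2.53 ± 0.32. Krtap19-2 rose by 2.99 ± 0.63, and its call ended without day 7 replicate 1 (adjusted p up to 0.052).

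Beyond keratins, 16 of 24 hair follicle genes rose and none fell, with a median of 0.88. With 1 array left out the count was 15 to 18. Gprc5d, an orphan receptor of hair-forming cells, stood at 7.32, 8.37 and 8.30 at day 7 and 10.91, 10.71 and 10.71 at day 14. Replicate 1 of day 7 lay well below its group. The rise was 6.89-fold (adjusted p = 1.37e-06). Vsig8, a membrane protein of the hair shaft, rose by 2.43 ± 0.14, and Prr9, a proline-rich protein, by 2.49 ± 0.26. Dsg4, the desmoglein of the upper hair shaft, gave 7.50, 7.71 and 7.77 at day 7 and 10.07, 9.97 and 9.99 at day 14, a 5.1-fold rise. S100a3, a calcium-binding protein of the hair cuticle, rose by 1.89 ± 0.19. Padi3 and Padi1, which convert arginine to citrulline in hair and epidermal proteins, rose by 2.05 ± 0.14 and 1.08 ± 0.13.

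Several transcription factors of that list rose by smaller steps, while Dlx4 (0.46 ± 0.13) and Cux1 (0.14 ± 0.09) did not pass. Msx2, a homeobox factor of the hair matrix and digit tip, stood at 6.85, 6.75 and 6.96 at day 7 and 7.45, 7.60 and 8.35 at day 14, with replicate 3 the highest at day 14, and rose 1.93-fold (adjusted p = 0.00429). Foxn1, whose loss makes the nude mouse, rose by 0.90 ± 0.14, Dlx3 by 0.89 ± 0.15, Lef1 by 0.86 ± 0.13 and Gata3, a factor of the inner root sheath, by 0.68 ± 0.11. Hoxc13, a Hox factor that drives hair keratin genes, rose by 0.71 ± 0.14 and was the 1 of 13 posterior and distal Hox genes to pass. Bmp4, a ligand that acts on the hair matrix and on bone, rose by 0.56 ± 0.13. Its call ended without day 14 replicate 1, day 14 replicate 3, day 7 replicate 2 or day 7 replicate 3 (adjusted p up to 0.0761).

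Other large rises lay outside the lists. Sptssb, a subunit of serine palmitoyltransferase, the enzyme that starts sphingolipid synthesis, stood at 5.09, 5.45 and 5.70 at day 7 and 8.20, 7.91 and 8.85 at day 14. It was low in all day 7 arrays and high in all day 14 arrays, a 7.49-fold rise (adjusted p = 4.89e-08). Ly6g6g, a member of the Ly6 family of surface proteins, rose by 2.43 ± 0.19.

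Of 13 epidermal and wound keratins, 3 rose and none fell (2 to 3 with 1 array left out), against 1.75% of probe sets called higher, with a median of 0.11. They were Krt75, Krt23, a keratin of simple and stressed epithelia, which rose by 1.10 ± 0.20, and Krt17, a keratin of wounded epidermis and of the follicle, which rose by 0.63 ± 0.15. The call of Krt17 ended without day 14 replicate 1, day 14 replicate 3, day 7 replicate 2 or day 7 replicate 3 (adjusted p up to 0.135). Krt16, the wound keratin, did not pass. It stood at 10.84, 9.56 and 8.89 at day 7 and 9.44, 9.33 and 8.39 at day 14, with replicate 1 the highest at day 7 and overlap between both days. The basal keratins Krt5 and Krt14 differed by 0.11 ± 0.10 and -0.04 ± 0.10, and the suprabasal Krt1 and Krt10 by -0.07 ± 0.09 and 0.01 ± 0.07, with none passing. Of 26 genes of the cornified envelope, the outer shell of the epidermis, 1 rose. This was Sprr1a, at 12.41, 12.39 and 12.36 at day 7 and 13.14, 13.01 and 13.27 at day 14, a rise of 0.75 ± 0.12 (adjusted p = 0.000573). Of 19 desmosome and junction genes 1 rose, Cldn4, by 0.56 ± 0.14, and its call ended without day 14 replicate 3, day 7 replicate 1 or day 7 replicate 3 (adjusted p up to 0.162).

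**Figure D2:**
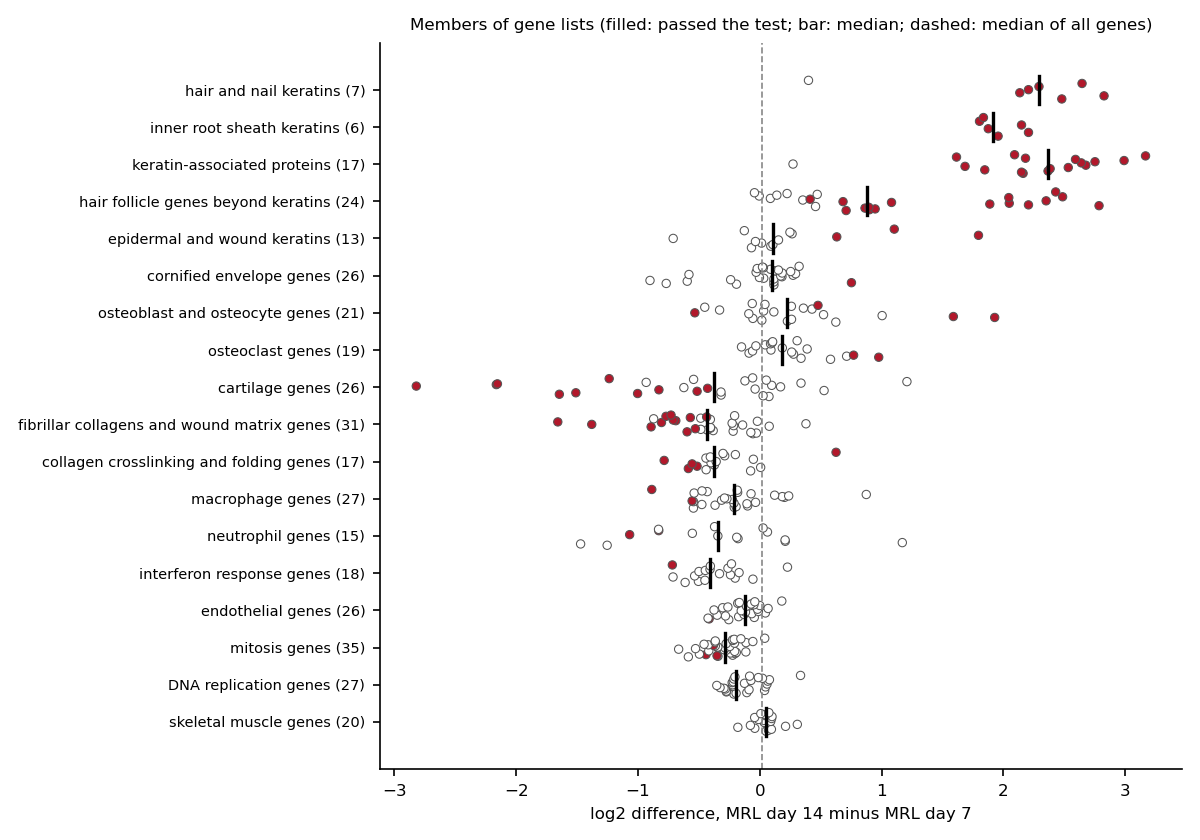
Each point is a gene of the list named at the left, placed by its log2 difference between MRL day 14 and MRL day 7 (x axis), filled where it passed the limma test, with the list's median as a bar and the number of members in brackets. The 3 lists of hair keratins, sheath keratins and keratin-associated proteins have medians of 2.29, 1.92 and 2.37, while cartilage and wound matrix genes have medians of -0.37 and -0.43 with long tails to the left.

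Genes of cartilage held the largest falls. Of 26 measured, 10 fell, none rose and 16 did not pass, with a median of -0.37, against 1.79% of probe sets called lower. With 1 array left out 7 to 11 fell. Without replicate 3 of day 7 the count was 7, the lowest. Matn3, matrilin 3, a linking protein of the cartilage matrix, stood at 8.13, 8.70 and 9.58 at day 7 and 6.07, 5.81 and 6.07 at day 14. The 3 arrays of day 14 lay close together, and the day 7 arrays were spread out, with replicate 3 the highest. The fall was 7.07-fold (2.82 ± 0.40 in log2, SE, adjusted p = 9.9e-05). Hapln1, which links aggrecan to hyaluronan, stood at 6.74, 7.75 and 8.24 at day 7 and 5.50, 5.21 and 5.53 at day 14 and fell by 2.16 ± 0.26 (adjusted p = 1.53e-05). Replicate 1 was again the lowest and replicate 3 the highest at day 7. Cnmd, chondromodulin, an inhibitor of vessel growth made by chondrocytes, gave 6.90, 7.74 and 8.49 at day 7 and 5.66, 5.38 and 5.64 at day 14. It showed the same order of replicates at day 7 and fell 4.45-fold (adjusted p = 0.000232).

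Several structural genes of hyaline cartilage fell as well. Acan, aggrecan, stood at 9.55, 9.58 and 10.09 at day 7 and 7.98, 7.79 and 8.52 at day 14, a 3.13-fold fall (adjusted p = 9.9e-05). Replicate 3 was the highest array of each day, and the gap between the days was wider than the spread within them. Col9a1, a chain of collagen IX that coats collagen II fibrils, stood at 7.98, 8.31 and 8.78 at day 7 and 6.75, 6.76 and 7.03 at day 14 and fell by 1.51 ± 0.18. Col2a1, the main collagen of cartilage, stood at 9.22, 9.52 and 10.001 at day 7 and 8.43, 8.35 and 8.94 at day 14 and fell by 1.00 ± 0.19 (adjusted p = 0.00269). C1qtnf3, also called cartducin, fell by 1.24 ± 0.19, Col11a1, the collagen XI chain of the fibril core, by 0.83 ± 0.19, and Col9a3 by 0.52 ± 0.11. The call of Col11a1 ended without day 14 replicate 2 or day 7 replicate 3 (adjusted p up to 0.0901).

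Other cartilage genes did not pass. The structural genes Col9a2 (-0.32 ± 0.09), Col11a2 (-0.04 ± 0.11), Comp (-0.62 ± 0.37) and Matn1 (0.17 ± 0.11) were among them. Sox9, the master factor of chondrocytes, stood at 8.25, 8.36 and 8.53 at day 7 and 8.10, 8.43 and 8.84 at day 14 with overlap, a difference of 0.08 ± 0.15 (adjusted p = 0.919). Col10a1, the collagen of hypertrophic chondrocytes, gave 9.19, 8.84 and 9.19 at day 7 and 9.33, 8.87 and 10.61 at day 14, with replicate 3 of day 14 far above the rest, a difference of 0.53 ± 0.36 (adjusted p = 0.624). Chad, chondroadherin, went the other way at 6.96, 7.53 and 7.74 at day 7 and 8.38, 8.17 and 9.30 at day 14, a difference of 1.21 ± 0.37 (adjusted p = 0.0791).

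Scx, scleraxis, the factor of tendon progenitors, stood at 8.40, 8.59 and 8.61 at day 7 and 7.30, 6.85 and 7.66 at day 14. The day 7 arrays lay close together and above all of day 14, a 2.4-fold fall (adjusted p = 0.000356). Tnmd, tenomodulin, the marker of mature tendon, did not pass (0.28 ± 0.13). Of 11 tendon genes, Scx and Tnc fell and none rose, against 1.79% of probe sets called lower. In the Hedgehog pathway, Ptch1, the receptor and a target of the pathway, stood at 9.23, 8.98 and 9.24 at day 7 and 8.59, 8.41 and 8.61 at day 14 and fell by 0.61 ± 0.10 (adjusted p = 0.000573). Gli1, a target and effector of the pathway, fell by 0.43 ± 0.11, a call that ended without day 14 replicate 1, day 14 replicate 2, day 7 replicate 1 or day 7 replicate 3 (adjusted p up to 0.152). These were the 2 of 29 Hedgehog and FGF genes to pass, against 3.54% of all probe sets.

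**Figure D3:**
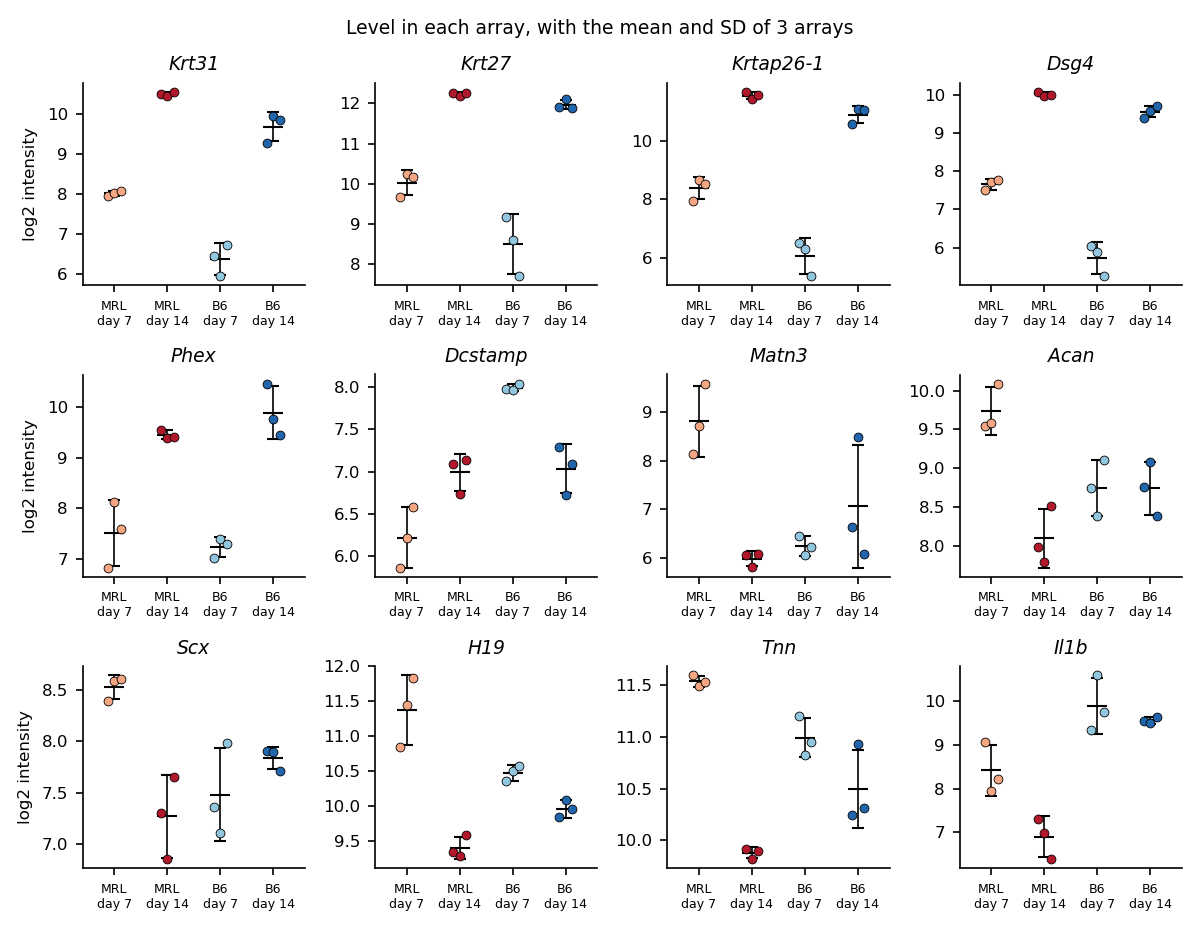
The log2 intensity of 12 genes is shown in each array (points) with the mean and SD of 3 arrays (bars), for MRL (red shades) and B6 (blue shades) at day 7 and day 14. Matn3 is high in MRL day 7 alone apart from 1 array of B6 day 14, and Krt31 is higher at day 14 than at day 7 in both strains.

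Genes of the young wound matrix fell in part. Of 31 fibrillar collagens and wound matrix genes, 12 fell, none rose and 19 did not pass, with a median of -0.43, against 1.79% of probe sets called lower. The 3 alternative scalings each called 16. With 1 array left out 7 to 10 fell, the fewest without replicate 3 of day 7. Tnn, tenascin N, stood at 11.60, 11.49 and 11.53 at day 7 and 9.92, 9.82 and 9.90 at day 14. The days were tight and far apart, a 3.16-fold fall (adjusted p = 9.86e-05). Fbn2, the fibrillin of developing tissue, stood at 9.11, 8.90 and 9.20 at day 7 and 7.76, 7.63 and 7.68 at day 14 and fell 2.6-fold. Col12a1, a collagen that binds to the surface of collagen I fibrils, gave 12.14, 12.13 and 12.24 at day 7 and 11.29, 11.21 and 11.33 at day 14 and fell by 0.89 ± 0.11 (adjusted p = 1.15e-05). Tnc, tenascin C, fell by 0.81 ± 0.11, Emilin1, an elastic fibre protein, by 0.77 ± 0.15, Fbln2, fibulin 2, by 0.73 ± 0.16, Thbs2 and Thbs1, the thrombospondins, by 0.71 ± 0.11 and 0.69 ± 0.14, and Col5a1 by 0.60 ± 0.16. The fibrillar collagens Col1a1 (-0.06 ± 0.14), Col1a2 (-0.03 ± 0.13) and Col3a1 (-0.07 ± 0.11) did not pass.

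Enzymes that fold and crosslink collagen moved the same way in 4 of 17 members, while 1 rose, against 1.79% of probe sets called lower and 1.75% higher. The count of falls was 0 to 4 with 1 array left out, and it was 0 without replicate 2 or 3 of day 7 or replicate 2 of day 14. P4ha3, a prolyl hydroxylase, fell by 0.79 ± 0.21, Loxl3, a lysyl oxidase, by 0.59 ± 0.14 and Plod3, a lysyl hydroxylase, by 0.56 ± 0.14. Pcolce2, an enhancer of procollagen processing, rose by 0.63 ± 0.14, a call that ended without day 14 replicate 3 or day 7 replicate 1 (adjusted p up to 0.0827). Of 18 basement membrane genes 2 fell, Col7a1, the anchoring fibril collagen, by 0.57 ± 0.10 and Lama4, a laminin chain of vessels, by 0.45 ± 0.10. The call of Lama4 ended without day 14 replicate 3, day 7 replicate 1 or day 7 replicate 3 (adjusted p up to 0.0733). Acta2, the smooth muscle actin of myofibroblasts, stood at 11.82, 12.08 and 12.14 at day 7 and 11.37, 11.18 and 11.57 at day 14 and fell by 0.64 ± 0.15. It was the 1 of 16 myofibroblast and smooth muscle genes to pass, and its call ended without day 14 replicate 2, day 7 replicate 2 or day 7 replicate 3 (adjusted p up to 0.0898).

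H19, an imprinted long noncoding RNA of fetal tissue, stood at 10.85, 11.44 and 11.83 at day 7 and 9.33, 9.28 and 9.58 at day 14. The fall was 3.94-fold (adjusted p = 5.59e-06). Its imprinted neighbour Igf2 did not pass, at 7.31, 7.76 and 7.89 at day 7 and 7.89, 7.85 and 8.35 at day 14. Igf1 fell by 0.57 ± 0.11 and Igfbp3, a binding protein of the IGFs, by 0.73 ± 0.17. With H19, 3 of 13 IGF axis genes fell, against 1.79% of probe sets called lower. The call of Igfbp3 ended without day 14 replicate 2 or day 7 replicate 3 (adjusted p up to 0.107). Peg3, an imprinted zinc finger gene, stood at 8.11, 8.46 and 8.72 at day 7 and 7.17, 7.16 and 7.01 at day 14 and fell 2.5-fold (adjusted p = 2.87e-06). Csrp2, a LIM protein of smooth muscle and activated stroma, stood at 10.37, 10.55 and 10.64 at day 7 and 8.88, 8.70 and 9.02 at day 14, a 3.14-fold fall (adjusted p = 7.71e-07).

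Has2, the main hyaluronan synthase, stood at 9.64, 10.20 and 9.85 at day 7 and 8.91, 8.71 and 7.998 at day 14. Replicate 3 was the lowest at day 14, and the fall was 2.57-fold (adjusted p = 0.000132). Epha3, an ephrin receptor of embryonic mesenchyme, gave 7.77, 8.17 and 8.49 at day 7 and 6.87, 6.49 and 6.78 at day 14 and fell by 1.43 ± 0.16. Inhba, the activin A subunit, stood at 8.37, 8.90 and 8.99 at day 7 and 7.53, 7.39 and 7.49 at day 14 and fell by 1.28 ± 0.20 (adjusted p = 0.000315). In the list of 30 BMP and TGF-beta genes, Inhba, Ltbp2 and Tgfb3 fell and Bmp4 rose. The call of Tgfb3 ended without day 14 replicate 1, day 14 replicate 2, day 7 replicate 2 or day 7 replicate 3 (adjusted p up to 0.191). Ltbp2, which binds latent TGF-beta family complexes and microfibrils, fell by 0.73 ± 0.16, and its call ended without day 14 replicate 2 or day 7 replicate 3 (adjusted p up to 0.0898). Crabp1, a retinoic acid binding protein, fell by 1.15 ± 0.14. It was the 1 of 22 digit tip and blastema regulators to fall, and Msx2 and Bmp4 of that list rose.

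Among 44 Wnt pathway genes, 2 rose and 2 fell. Besides Lef1, the ligand Wnt2 rose by 0.69 ± 0.18, a call that ended without day 14 replicate 1, day 14 replicate 3, day 7 replicate 1, day 7 replicate 2 or day 7 replicate 3 (adjusted p up to 0.15). The secreted Wnt antagonists Sfrp2 and Sfrp1 fell by 0.90 ± 0.22 and 0.83 ± 0.21. The call of Sfrp2 ended without day 14 replicate 1, day 14 replicate 2 or day 7 replicate 3 (adjusted p up to 0.152), and that of Sfrp1 without day 14 replicate 1, day 14 replicate 2, day 14 replicate 3, day 7 replicate 2 or day 7 replicate 3 (adjusted p up to 0.171).

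Among bone genes, Phex, an endopeptidase of osteoblasts and osteocytes that governs phosphate, stood at 6.84, 8.12 and 7.60 at day 7 and 9.55, 9.39 and 9.41 at day 14. Replicate 1 was the lowest at day 7, and the 3 arrays of day 14 lay close together. The rise was 3.81-fold (adjusted p = 6.54e-05). Dmp1, the dentin matrix protein of osteocytes, stood at 5.98, 6.89 and 7.01 at day 7 and 8.12, 8.15 and 8.38 at day 14 and rose 3.01-fold (adjusted p = 0.0014). Of 21 osteoblast and osteocyte genes, 3 rose and 1 fell, against 1.75% and 1.79% of all probe sets. The third was Bmp3, an antagonist of BMP signalling in bone, which rose by 0.48 ± 0.13 and lost its call without any 1 of the 6 arrays (adjusted p up to 0.192). The 1 that fell was Pdpn, podoplanin, by 0.53 ± 0.12, which is also made by lymphatic vessels, keratinocytes and fibroblasts. Its call ended without day 14 replicate 2 or day 7 replicate 3 (adjusted p up to 0.0764). Mepe, a further osteocyte gene, gave 6.14, 7.19 and 7.60 at day 7 and 8.07, 7.81 and 8.07 at day 14 and did not pass (1.00 ± 0.29, adjusted p = 0.0602). Sp7, the osteoblast factor osterix, gave 7.58, 7.82 and 7.84 at day 7 and 8.72, 8.03 and 8.36 at day 14 (adjusted p = 0.177), and Ibsp differed by 0.26 ± 0.32.

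Of 19 osteoclast genes, 2 rose and none fell, against 1.75% of probe sets called higher. With 1 array left out 0 to 3 rose. Mmp9, a gelatinase of osteoclasts and neutrophils, stood at 9.22, 9.77 and 10.21 at day 7 and 10.65, 10.49 and 10.97 at day 14 and rose 1.97-fold (adjusted p = 0.0139). Its call ended without day 14 replicate 3 or day 7 replicate 1 (adjusted p up to 0.0899). Dcstamp, which osteoclast precursors need to fuse, stood at 5.87, 6.22 and 6.58 at day 7 and 7.09, 6.74 and 7.14 at day 14 and rose by 0.77 ± 0.18, a call that ended without day 14 replicate 1, day 14 replicate 3, day 7 replicate 1 or day 7 replicate 2 (adjusted p up to 0.11). Acp5, the tartrate-resistant acid phosphatase of osteoclasts, gave 10.27, 10.63 and 11.09 at day 7 and 11.34, 11.19 and 11.21 at day 14, and Ctsk, cathepsin K, differed by 0.34 ± 0.16. Neither passed. Mmp9, Acp5 and Dcstamp were lowest in replicate 1 and highest in replicate 3 among the day 7 arrays.

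Of 18 matrix metalloproteinases, Mmp9 and Mmp13, the collagenase of bone and cartilage, rose, and Mmp11, Mmp14 and Mmp23 fell. Over all probe sets 1.75% were called higher and 1.79% lower. Mmp13 stood at 10.18, 10.41 and 11.59 at day 7 and 11.94, 11.73 and 12.21 at day 14, a rise of 1.24 ± 0.34, and its call ended without day 14 replicate 1, day 14 replicate 2, day 14 replicate 3, day 7 replicate 1 or day 7 replicate 2 (adjusted p up to 0.209). Mmp11, a stromal protease, fell by 0.74 ± 0.14, and Mmp14, the membrane-bound collagenase of stromal cells, by 0.48 ± 0.12. The call of Mmp14 ended without day 14 replicate 1, day 14 replicate 2, day 7 replicate 1 or day 7 replicate 3 (adjusted p up to 0.153). Timp1, the protease inhibitor induced in wounds, stood at 10.91, 10.99 and 11.31 at day 7 and 10.30, 10.09 and 10.37 at day 14 and fell 1.76-fold. It was the 1 of 12 inhibitors and plasminogen genes to pass, and its call ended without day 14 replicate 1, day 14 replicate 2, day 7 replicate 2 or day 7 replicate 3 (adjusted p up to 0.138).

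Of 25 inflammatory cytokines and chemokines, Il1b, interleukin 1 beta, was the 1 that fell, against 1.79% of probe sets called lower, at 9.07, 7.94 and 8.22 at day 7 and 7.32, 6.99 and 6.39 at day 14. Replicate 1 was the highest at day 7, and the fall was 2.86-fold (adjusted p = 0.014). Its call ended without day 14 replicate 3 or day 7 replicate 1 (adjusted p up to 0.087). The neutrophil chemokine Cxcl2 gave 8.24, 6.69 and 7.04 at day 7 and 6.12, 6.15 and 5.92 at day 14 and did not pass (-1.26 ± 0.44, adjusted p = 0.156). Of 15 neutrophil genes 2 fell, against the same 1.79%. Csf3r, the receptor for the neutrophil growth factor G-CSF, stood at 7.81, 7.24 and 7.65 at day 7 and 6.81, 6.35 and 6.33 at day 14 and fell 2.1-fold (adjusted p = 0.004). Clec4d, a lectin receptor of myeloid cells, fell by 0.83 ± 0.20, a call that ended without day 14 replicate 1, day 14 replicate 2, day 7 replicate 1 or day 7 replicate 3 (adjusted p up to 0.129). The neutrophil proteins S100a8 and S100a9 did not pass. S100a9 stood at 10.97, 8.72 and 8.59 at day 7 and 7.95, 8.19 and 7.71 at day 14, with replicate 1 of day 7 far above its group.

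Of 27 macrophage genes, 22 had a difference below 0 and 2 fell, against 1.79% of probe sets called lower. Their median was -0.21, against 0.0146 for all genes. It was -0.13 without replicate 2 of day 14 and -0.33 without replicate 3 of day 14. With 1 array left out 0 to 2 fell. The mean level of the 27 genes ran from 7.89 to 8.05 over the arrays of day 7 and from 7.6 to 7.87 over those of day 14. Fcgr1, the high-affinity IgG receptor, fell by 0.56 ± 0.14, and its call ended without day 14 replicate 1, day 14 replicate 2, day 7 replicate 1 or day 7 replicate 3 (adjusted p up to 0.15). Adgre1, a surface marker of mouse macrophages, did not pass at 8.54, 8.77 and 8.95 at day 7 and 8.27, 7.99 and 8.36 at day 14, nor did Csf1r (-0.20 ± 0.10) or Cd68 (-0.21 ± 0.13). Of 9 complement genes 2 fell, against 1.79% of probe sets called lower. They were C3ar1, the C3a receptor of myeloid cells, by 0.76 ± 0.17 and Cfb, complement factor B, by 0.56 ± 0.14. The call of C3ar1 ended without day 14 replicate 1 or day 14 replicate 2 (adjusted p up to 0.0906), and that of Cfb without day 14 replicate 2, day 14 replicate 3, day 7 replicate 2 or day 7 replicate 3 (adjusted p up to 0.165).

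Of 18 interferon response genes, 17 had a difference below 0 and 1 fell, against 1.79% of probe sets called lower. This was Rtp4, by 0.72 ± 0.18, and with 1 array left out 0 to 3 fell. The median was -0.41, against 0.0146 for all genes, and it was -0.18 without replicate 1 of day 7. The mean level of the 18 genes was 6.97 in that array, against 6.35 and 6.31 in the other arrays of day 7 and 6.18 in each array of day 14. The call of Rtp4 ended without day 14 replicate 1, day 14 replicate 2, day 14 replicate 3 or day 7 replicate 1 (adjusted p up to 0.154). In the list of 19 T and NK cell genes, Cd3g, a chain of the T cell receptor complex, fell by 0.65 ± 0.17. Its partner Cd3e did not pass (-0.17 ± 0.13), and the call of Cd3g ended without day 14 replicate 1, day 14 replicate 2, day 7 replicate 1, day 7 replicate 2 or day 7 replicate 3 (adjusted p up to 0.136).

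Of 35 mitosis genes, 34 had a difference below 0 and 4 fell, against 1.79% of probe sets called lower. Their median was -0.28, against 0.0146 for all genes. With 1 array left out 1 to 5 fell, and after cyclic loess, quantile normalization and median centring the counts were 9, 8 and 6. With array weights 24 fell. On the 6 arrays alone 0 fell. The mean level of the 35 genes ran from 8.04 to 8.19 over the arrays of day 7 and from 7.76 to 7.86 over those of day 14. Ccna2, cyclin A2, stood at 9.31, 9.33 and 9.55 at day 7 and 8.94, 8.88 and 9.04 at day 14. Both days were tight and apart, a fall of 0.44 ± 0.08 (adjusted p = 0.00222). Kif23, a kinesin of cytokinesis, fell by 0.35 ± 0.09, a call that ended without day 14 replicate 2, day 14 replicate 3, day 7 replicate 1 or day 7 replicate 3 (adjusted p up to 0.0997). Mki67, the proliferation antigen, gave 9.31, 9.32 and 9.45 at day 7 and 9.25, 9.09 and 7.99 at day 14, with replicate 3 of day 14 far below its group, and did not pass. None of 27 DNA replication genes passed, with a median of -0.20, which was -0.10 without replicate 2 of day 14. After cyclic loess, quantile normalization and median centring 3, 3 and 2 fell.

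In smaller lists, 2 of 17 adipocyte genes rose, against 1.75% of probe sets called higher. Car3, a carbonic anhydrase of fat and muscle, rose by 1.13 ± 0.25 and Retn, the fat hormone resistin, by 0.56 ± 0.12. Their calls ended without day 14 replicate 3 or day 7 replicate 3 (adjusted p up to 0.063) and without day 14 replicate 3 or day 7 replicate 2 (adjusted p up to 0.09). Adipoq, the adipocyte hormone adiponectin, did not pass (0.23 ± 0.30). Cdh5, the cadherin of endothelium, fell by 0.42 ± 0.11 as the 1 of 26 endothelial genes to pass, and its call ended without day 14 replicate 1, day 14 replicate 2, day 7 replicate 2 or day 7 replicate 3 (adjusted p up to 0.198). In 13 lists, with 229 members in all, no gene passed. They include skeletal muscle, mitochondrial oxidative phosphorylation, p53 targets, MHC class II presentation, B cells, mast cells and erythroid genes.

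In B6, which served as the most similar comparison, 296 of 15928 probe sets passed between day 7 and day 14 (1.86%), 232 higher (1.46%) and 64 lower (0.402%). The share of higher calls in B6 moved with the scaling, with 286 higher and 173 lower after cyclic loess, 266 and 180 after quantile normalization and 229 and 248 after median centring. The test of the difference between both strains' changes passed in 42 probe sets (0.264%), 15 with a higher change in MRL (0.0942%) and 27 with a lower one (0.170%). After median centring the split was 28 and 30. Fitted on the 12 arrays of these 4 groups alone, with fewer degrees of freedom, 1 probe set passed at the adjusted p and 1031 at an unadjusted p under 0.05. Both changes rest on arrays of their own. A gene that passed in one strain alone is not shown to differ unless this test passed.

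Most hair genes rose in each strain. Of 54 genes in the 4 hair lists, 44 rose in MRL and 44 rose in B6, against 1.75% and 1.46% of probe sets called higher. Dsc2 of these lists fell in B6, by 1.26 ± 0.26 (adjusted p = 0.00923), and did not pass in MRL (0.35 ± 0.26). A larger log2 difference in B6 was seen in 45. Of these 54 genes, 5 passed the test of the strain difference, all with the larger rise in B6, against 0.170% of probe sets with a lower change in MRL. With 1 of the 12 arrays left out 3 to 9 passed, and on those 12 arrays alone 0. Without B6 day 7 replicate 1 or B6 day 14 replicate 2 these include Dsc2, with the higher change in MRL. The strain differences of Krt35 and Krtap26-1 ended without any 1 of several arrays, with adjusted p up to 0.106 for each, while Dsg4, S100a3 and Krtap5-4 passed without each of the 12. At day 7 the MRL mean lay above the B6 mean in 49 of 54, with a median gap of 1.31, and at day 14 in 50 of 54, with a median gap of 0.447. Dsg4 stood in B6 at 6.03, 5.88 and 5.25 at day 7 and 9.40, 9.58 and 9.70 at day 14, a rise of 3.84 ± 0.15 against 2.35 ± 0.15 in MRL. The strain difference was -1.49 ± 0.21 (adjusted p = 0.00282). S100a3 rose by 3.72 ± 0.19 in B6, a strain difference of -1.83 ± 0.27 (adjusted p = 0.00327), and Krtap5-4, in a family of near-identical copies, by 5.16 ± 0.32, a strain difference of -2.63 ± 0.46 (adjusted p = 0.00935). Krt31 rose by 3.31 ± 0.19 in B6, and its strain difference did not pass (-0.83 ± 0.27, adjusted p = 0.416). Phex and Dmp1 also rose in B6, by 2.64 ± 0.26 and 1.55 ± 0.28, with strain differences of -0.71 and 0.04 that did not pass.

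**Figure D4:**
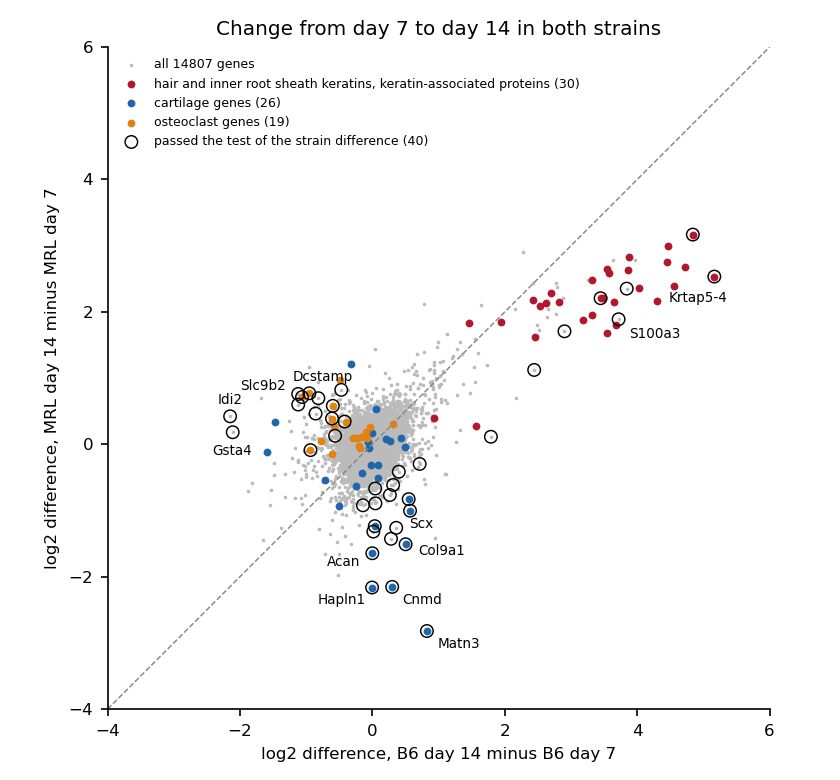
The log2 difference of 14807 genes between day 14 and day 7 is plotted for B6 (x axis) against MRL (y axis), with the dashed line at equal change and circles around the 40 genes that passed the test of the strain difference. Hair keratins and keratin-associated proteins (red) rise in both strains and lie mostly below the line, while Matn3, at -2.82 in MRL and 0.82 in B6, and the cartilage genes circled (blue) lie below the line.

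Some falls of cartilage genes differed between the strains. Of 26 cartilage genes, 8 passed the test of the strain difference, each with the lower change in MRL, against 0.170% of probe sets. With 1 of the 12 arrays left out 4 to 7 passed, with 4 without replicate 2 of B6 day 7 or replicate 2 of MRL day 14, and on the 12 arrays alone 1 passed, Col11a1. Matn3, Hapln1, Col9a1 and Col2a1 passed without each of the 12, while C1qtnf3 and Col11a1 lost the call without most of them (adjusted p up to 0.162 and 0.095). Matn3 stood in B6 at 6.45, 6.06 and 6.22 at day 7 and 6.63, 8.49 and 6.07 at day 14, with replicate 2 of day 14 far above the other arrays and no difference that passed (0.82 ± 0.40, adjusted p = 0.46). Its strain difference was -3.64 ± 0.56 (adjusted p = 0.00327). Col9a1 differed by 0.50 ± 0.18 in B6 without passing, a strain difference of -2.01 ± 0.25 (adjusted p = 0.0014). Hapln1 and Acan differed in B6 by -0.01 ± 0.26 and -0.00 ± 0.23, with strain differences of -2.16 ± 0.37 (adjusted p = 0.00806) and -1.64 ± 0.33 (adjusted p = 0.0277). The strain difference of Acan ended without B6 day 14 replicate 1, B6 day 14 replicate 2, B6 day 7 replicate 1, B6 day 7 replicate 2, MRL day 14 replicate 1, MRL day 14 replicate 2 or MRL day 7 replicate 3 (adjusted p up to 0.114). Cnmd gave a strain difference of -2.45 ± 0.46 (adjusted p = 0.0184), which ended without B6 day 7 replicate 2 or MRL day 14 replicate 2 (adjusted p up to 0.0557). At day 7 the MRL mean lay above the B6 mean in 18 of 26 cartilage genes, with a median gap of 0.256. At day 14 it lay above in 5 of 26, with a median gap of -0.247. Single genes had wider gaps at day 7, with Matn3 at 8.81 ± 0.73 (SD, n = 3) in MRL and 6.24 ± 0.20 in B6 and Col2a1 at 9.58 ± 0.39 and 7.94 ± 0.25. At day 14 Col2a1 stood at 8.58 ± 0.32 in MRL and 8.51 ± 0.30 in B6.

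Scx, Ptch1, Col12a1, Epha3 and Peg3 also fell in MRL with a strain difference that passed. Scx differed by 0.36 ± 0.20 in B6 without passing, a strain difference of -1.62 ± 0.28 (adjusted p = 0.00806). For Ptch1 the B6 difference was 0.31 ± 0.10 and the strain difference -0.93 ± 0.14 (adjusted p = 0.00327). Col12a1 and Epha3 gave strain differences of -0.94 ± 0.15 and -1.71 ± 0.23, and Peg3 gave -1.33 ± 0.20. H19 fell in MRL and did not pass in B6 (-0.52 ± 0.22), but its strain difference did not pass either (-1.46 ± 0.32, adjusted p = 0.0542).

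Some osteoclast genes also differed between the strains. Of 19, 5 fell in B6, against 0.402% of probe sets called lower in B6. The test of the strain difference passed in 5, each with the higher change in MRL, against 0.0942% of probe sets. With 1 of the 12 arrays left out 2 to 6 passed, and on the 12 arrays alone 0. Dcstamp and Oscar, a receptor of osteoclasts, passed without each of the 12, while Acp5, Atp6v0d2 and Itgb3, an integrin chain, did not (adjusted p up to 0.118, 0.114 and 0.067). Dcstamp stood in B6 at 7.97, 7.96 and 8.04 at day 7 and 7.29, 6.73 and 7.09 at day 14, a fall of 0.95 ± 0.18 where MRL rose by 0.77 ± 0.18, and the strain difference was 1.72 ± 0.26 (adjusted p = 0.00327). Slc9b2, outside the list, a sodium and proton exchanger of osteoclast mitochondria, fell by 1.12 ± 0.18 in B6 and rose by 0.76 ± 0.18 in MRL, a strain difference of 1.88 ± 0.25 (adjusted p = 0.0014). The MRL call of Slc9b2 ended without day 14 replicate 1, day 14 replicate 3, day 7 replicate 1 or day 7 replicate 2 (adjusted p up to 0.103). Atp6v0d2, a subunit of the osteoclast proton pump, fell by 1.06 ± 0.25 in B6 and did not pass in MRL (0.71 ± 0.25). Its strain difference of 1.78 ± 0.36 (adjusted p = 0.0288) ended without B6 day 14 replicate 2, B6 day 14 replicate 3, B6 day 7 replicate 2, B6 day 7 replicate 3, MRL day 14 replicate 1, MRL day 14 replicate 2, MRL day 14 replicate 3, MRL day 7 replicate 1 or MRL day 7 replicate 2 (adjusted p up to 0.114). At day 7 Dcstamp stood at 6.22 ± 0.36 in MRL and 7.99 ± 0.04 in B6, and at day 14 at 6.99 ± 0.22 and 7.04 ± 0.29.

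Both further genes among the 10 largest strain differences did not pass in MRL. Gsta4, a glutathione transferase that clears products of lipid oxidation, stood in MRL at 10.64, 10.86 and 10.61 at day 7 and 11.00, 10.89 and 10.76 at day 14, with overlap, and in B6 at 10.35, 10.95 and 11.40 at day 7 and 9.26, 9.17 and 7.94 at day 14, and it fell by 2.11 ± 0.26 in B6. The strain difference was 2.29 ± 0.37 (adjusted p = 0.0044). Idi2, an isopentenyl diphosphate isomerase, fell by 2.15 ± 0.34 in B6 and differed by 0.42 ± 0.34 in MRL. Its strain difference of 2.57 ± 0.49 (adjusted p = 0.0204) ended without B6 day 14 replicate 3, B6 day 7 replicate 2, B6 day 7 replicate 3, MRL day 14 replicate 1, MRL day 14 replicate 3, MRL day 7 replicate 1 or MRL day 7 replicate 2 (adjusted p up to 0.0688).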

How the data were processed

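Total RNA was measured on Affymetrix exon arrays. The authors summarised them with RMA in Affymetrix Expression Console on the mm8 mouse build, per the submitters' processing notes, and deposited 1 linear intensity per probe set. The step from RMA's log values to linear ones is not stated. Of 16661 probe sets, 15928 had at least 1 gene symbol in the platform annotation and were tested. Gene statements use 1 symbol and the probe set with the highest mean, 14807 genes. The members and the 52 gene lists were chosen with earlier results of these data known.

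The log2 of each intensity was taken. A linear model fitted with lmFit and eBayes of limma 3.58.1 (R 4.3.3) held a mean for each of 8 groups over 24 arrays, with 16 residual and 4.62 prior degrees of freedom, and gave both strains' changes and their difference. Two-sided p-values were adjusted by Benjamini-Hochberg. The number of arrays limits the precision. The fit was tested on simulated data. The naming rule picked the 15 highest and 15 lowest differences among genes that passed without overlap, and up to 4 members that passed per list with the largest changes. It also picked defining members that did not pass and the 10 largest strain differences, and not all genes it picked are described. Some further list members and the sequences were chosen after their values were seen. The labels do not say that replicate numbers pair the arrays. Correlations of deviations between MRL arrays of the same number at both days were -0.00911, -0.0378 and 0.163. Those of unlike number ran from -0.241 to 0.233, and deviations from means of 3 arrays cannot settle pairing. Alternatives were other scalings, an added constant of 16, filters, subsets of arrays, array weights, a replicate block and leaving out arrays. Probe sets with several symbols were not named.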

Additional observations from a re-analysis of the deposited data

Results flagged for a closer look

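The change from day 7 to day 14 differed between MRL and B6 by a test of the difference itself in 42 probe sets. Among the genes named above, the change was lower in MRL in cartilage genes, with differences of -3.64 for Matn3, -2.45 for Cnmd, -2.16 for Hapln1, -2.01 for Col9a1 and -1.64 for Acan (log2, MRL change minus B6 change). It was lower in stromal and signalling genes, at -1.71 for Epha3, -1.62 for Scx, -1.33 for Peg3, -0.94 for Col12a1 and -0.93 for Ptch1. Hair genes also had lower changes in MRL, at -2.63 for Krtap5-4, -1.83 for S100a3, -1.67 for Krtap26-1 and -1.49 for Dsg4. The change was higher in MRL for Idi2 at 2.57, Gsta4 at 2.29, Slc9b2 at 1.88, Atp6v0d2 at 1.78 and Dcstamp at 1.72. Fitted on the 12 arrays of the 4 groups alone, none of the 10 largest kept its call, with the same sign in each. The strain difference of Krtap26-1 ended without B6 day 14 replicate 2, B6 day 14 replicate 3, B6 day 7 replicate 3, MRL day 14 replicate 1, MRL day 14 replicate 2, MRL day 14 replicate 3, MRL day 7 replicate 2 or MRL day 7 replicate 3 (adjusted p up to 0.106).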

How the results depend on the processing

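The fit above called 564 probe sets in MRL, 296 in B6 and 42 for the strain difference. For MRL the count was 893 after cyclic loess, 878 after quantile normalization, 246 on the 6 arrays alone, 2451 with array weights and 267 at an adjusted p of 0.01. For B6 these counts were 459, 446, 159, 557 and 162, and 477 after median centring. For the strain difference, 1 passed on the compared arrays alone, 201 with array weights and 20 at an adjusted p of 0.01. Leaving out 1 array gave 294 to 484 in MRL, 174 to 293 in B6 and 27 to 50 for the strain difference. With array weights, replicate 1 of MRL day 14 had a weight of 4.28 and replicate 3 of 0.225. With a replicate block the counts were 425, 252 and 35, and 325 for MRL in the 6 arrays alone, where 0 mitosis genes fell. On the 6 arrays alone without the block, 0 mitosis, 0 collagen crosslinking and 0 macrophage genes fell and 0 osteoclast genes rose. The labels do not say that the replicate numbers pair the arrays. In MRL, higher calls made up 49.5%, against 69.4% without replicate 2 of day 14 and 36.5% without replicate 3 of day 14. Of 99 genes picked by the naming rule that passed in MRL, 48 kept the call in all 20 alternatives other than the stricter p. The other 51 lost it in at least 1, with 0 changes of sign. On the 6 arrays alone 44 of the 99 lost it. Among these were Msx2, Hoxc13, Igf1 and Ccna2, which kept the call with each array left out. Some of the 99 are not described above, among them Mitf, Hif1a, Ogn and Cdk1, which lost the call in 13, 11, 11 and 10 alternatives. The median difference of all probe sets was 0.0139 as deposited, -0.00386 after cyclic loess, 0.000874 after quantile normalization and 0.0157 after median centring. The fit without the MRL arrays labelled day 0 and day 3, with 462, 275 and 31 calls, was chosen after seeing the data. Signal over background was not analysed, so folds of dim genes are uncertain.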

Other observations

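Genes outside the lists also changed, and those named here were chosen after their values were seen. Elf5, a factor of epithelial progenitors, rose by 2.10 ± 0.15 and Gabrp, a GABA receptor subunit of epithelia, by 1.97 ± 0.15, with values for Elf5 of 6.58, 7.16 and 7.10 at day 7 and 9.05, 8.80 and 9.28 at day 14. The antimicrobial S100 protein S100a7a rose by 2.12 ± 0.24. Chac1, a glutathione-degrading enzyme, rose by 1.47 ± 0.11, and Crym, a thyroid hormone binding protein, by 1.73 ± 0.15. Tpd52l1 stood at 7.12, 7.20 and 7.11 at day 7 and 8.75, 8.79 and 8.92 at day 14 and rose by 1.67 ± 0.09 (adjusted p = 3.65e-10).

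A list of imprinted genes was also written after H19 and Peg3 had been seen to fall, so it supports nothing. Of 26 measured, 5 fell, 0 rose and 21 did not pass, against 1.79% of probe sets called lower, and the median was 0.0329. The 5 were H19, Peg3, Grb10 (-0.88 ± 0.15), Plagl1 (-0.77 ± 0.14) and Airn. Grb10, a growth inhibitor that binds insulin and IGF receptors, stood at 10.17, 10.29 and 10.51 at day 7 and 9.45, 9.34 and 9.54 at day 14. Plagl1, a zinc finger factor, stood at 8.26, 8.44 and 8.74 at day 7 and 7.65, 7.65 and 7.85 at day 14. Dlk1 (0.14 ± 0.12), Cdkn1c (-0.07 ± 0.12) and Ndn (-0.08 ± 0.21) did not pass. In B6 none of the 26 passed in either direction, and the strain difference passed in 2, Peg3 and Plagl1 (-1.03 ± 0.19, adjusted p = 0.0184). That of Plagl1 ended without B6 day 14 replicate 1, B6 day 7 replicate 2, MRL day 14 replicate 1, MRL day 14 replicate 2 or MRL day 7 replicate 3 (adjusted p up to 0.066).

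Several myeloid genes outside the lists fell. Tlr13 and Tlr8, receptors for bacterial and other RNA, fell by 0.84 ± 0.14 and 0.75 ± 0.14, Il10ra, the interleukin 10 receptor, by 0.80 ± 0.12, and Ctss, the protease cathepsin S, by 0.59 ± 0.12. They kept the call with each array left out. The calls of Tlr7, Cd86 and Ptprc ended without any 1 of 4, 2 and 5 arrays (adjusted p up to 0.194, 0.0671 and 0.152). The macrophage markers Adgre1, Csf1r and Cd68 did not pass. Il10ra stood at 7.88, 7.77 and 7.85 at day 7 and 6.94, 6.92 and 7.24 at day 14. Hgf, hepatocyte growth factor, stood at 7.30, 7.83 and 7.77 at day 7 and 6.88, 6.66 and 6.45 at day 14 and fell by 0.97 ± 0.12.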
